A study of Mus musculus with 36 samples.

Results

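The receptors through which T cells are restrained or co-stimulated were examined in 36 subcutaneous mouse tumours. They comprised 10 genes, which were all listed among the 37417 genes of the count matrix and had at least 1 count in each of the 36 libraries. Pdcd1 (the receptor PD-1), Ctla4, Lag3, Havcr2 (TIM-3) and Tigit encode inhibitory receptors. Icos and Cd28 encode costimulatory receptors of the immunoglobulin superfamily, and Tnfrsf4 (OX40), Tnfrsf9 (4-1BB) and Tnfrsf18 (GITR) encode costimulatory receptors of the tumour necrosis factor receptor superfamily. The genes were taken by name, with earlier results of these data known.

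A T cell needs a signal from its antigen receptor together with a costimulatory signal, which CD28 supplies on binding CD80 or CD86. CTLA4 competes for the same ligands, and PD-1 recruits phosphatases that dampen antigen receptor signalling. Antibodies that block CTLA4 or PD-1 are used as immune checkpoint blockade. Several of these receptors appear after activation or persist on exhausted CD8 T cells, CTLA4, ICOS and GITR are abundant on regulatory T cells, and TIM-3, TIGIT and 4-1BB are also found on cells outside the T cell lineage, such as myeloid or NK cells.

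Per the labels, mice of 12 weeks, all wild type, carried 1 of 3 transplanted tumour lines. MC38, from colon, and PancO2, from pancreas, were grown in C57BL/6J mice, and CT26, from colon, in BALB/c mice. Each model was treated with a control IgG, anti-CTLA4 or anti-PD-1 at 10 mg/kg by intraperitoneal injection, and tumours were taken at the end stage, which gave 9 labelled groups of 4 tumours. Each model is a single transplanted line in a host with its own immune cells. The whole tumour was sequenced, so a library mixes cancer cells with every other cell type. A library's name joins the labelled group to the number of the mouse.

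The labels did not match the libraries, so the genes were described by 3 expression classes, and every labelled group below is a group as labelled. The H2-Ea class comprised 12 libraries with H2-Ea-ps, which encodes the E alpha chain of class II molecules, above 10 counts per 1000000 reads assigned to genes (CPM). Its lowest library had 32.8 CPM, and the highest library outside the class had 0.0845 CPM. C57BL/6 mice carry a haplotype that makes no E alpha, yet 8 of these 12 libraries were labelled C57BL/6J, and 8 of the 12 libraries labelled BALB/c fell outside the class. Of the other 24 libraries, 12 had Cp, which encodes ceruloplasmin, above 1000 CPM (Cp-high class, lowest 1389 CPM) and 12 had not (Cp-low class). Each labelled model contributed libraries to all 3 classes. The library labelled PancO2 anti-PD-1 71, in the H2-Ea class, stood apart. It was the shallowest, with 7883106 counts in genes against 11821687 to 41751023 in the others, and 15.7% of these were mitochondrial, against at most 4.35% in the other 35 libraries. It was left out of the correlations, and where it set an end of a printed range of a receptor or Cd3e in the H2-Ea class, the end without it is given as well. The classes come from measured values, so a class was not tested against another.

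T cell content had to be read beside the receptors. Cd3e, a chain of the T cell receptor complex, ran from 2.35 to 10.9 CPM in the H2-Ea class (median 4.67, highest in PancO2 anti-PD-1 71 and otherwise at most 7.76), from 6.08 to 22.8 CPM in the Cp-high class (median 9.62) and from 0.614 to 16.4 CPM in the Cp-low class (median 5.35). An antisense gene, Gm48719, shares 3.31% of its exonic length. The summed CPM of 7 T cell markers had a median of 17.4 in the H2-Ea class, 39.3 in the Cp-high class and 19 in the Cp-low class, and none of the 7 was at 0 throughout a class. The sum of 5 NK cell markers had medians of 9.04, 3.72 and 4.56 CPM in the same order, with Klra8 at 0 in every library of the H2-Ea class, and the sum of 7 macrophage markers had medians of 1050, 1644 and 1767 CPM. Each receptor was therefore given as CPM and as its ratio to Cd3e. In bulk tumours, fewer cells of a type and less RNA per cell cannot be told apart, and the ratio does not show which cells carried the transcript.

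The receptors were highest in different classes. By class median in CPM, 7 of 10 were highest in the Cp-high class, against 36.4% of the 17909 genes that passed the filter on low counts. These were Pdcd1, Ctla4, Havcr2, Icos, Cd28, Tnfrsf4 and Tnfrsf18. Tigit and Tnfrsf9 were highest in the H2-Ea class, and Lag3 was slightly higher in the Cp-low than in the Cp-high class. Relative to Cd3e, 0 of 10 were highest in the Cp-high class, against 8.16% of genes, and 6 of 10 were highest in the H2-Ea class, against 46.8% of genes.

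The ranges of the classes were separate for few receptors. Between the H2-Ea and Cp-high classes, Tigit was higher in every H2-Ea library (1 of 10 receptors, against 10.7% of all genes) and Havcr2, Tnfrsf4 and Tnfrsf18 were lower in every one (3 of 10, against 16.6%). Between the H2-Ea and Cp-low classes, Tigit was higher throughout (1 of 10, against 8.37%) and Tnfrsf18 lower throughout (1 of 10, against 14.9%). Between the Cp-high and Cp-low classes, 0 of 10 receptors had separate ranges in either direction, against 13% of genes higher in the Cp-high class, 13.6% lower and 26.6% in either direction. In either direction this made 4 of 10 receptors between the H2-Ea and Cp-high classes, against 27.3% of genes, and 2 of 10 between the H2-Ea and Cp-low classes, against 23.2%. Separate ranges were found for the same receptors without PancO2 anti-PD-1 71.

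**Figure D1:**
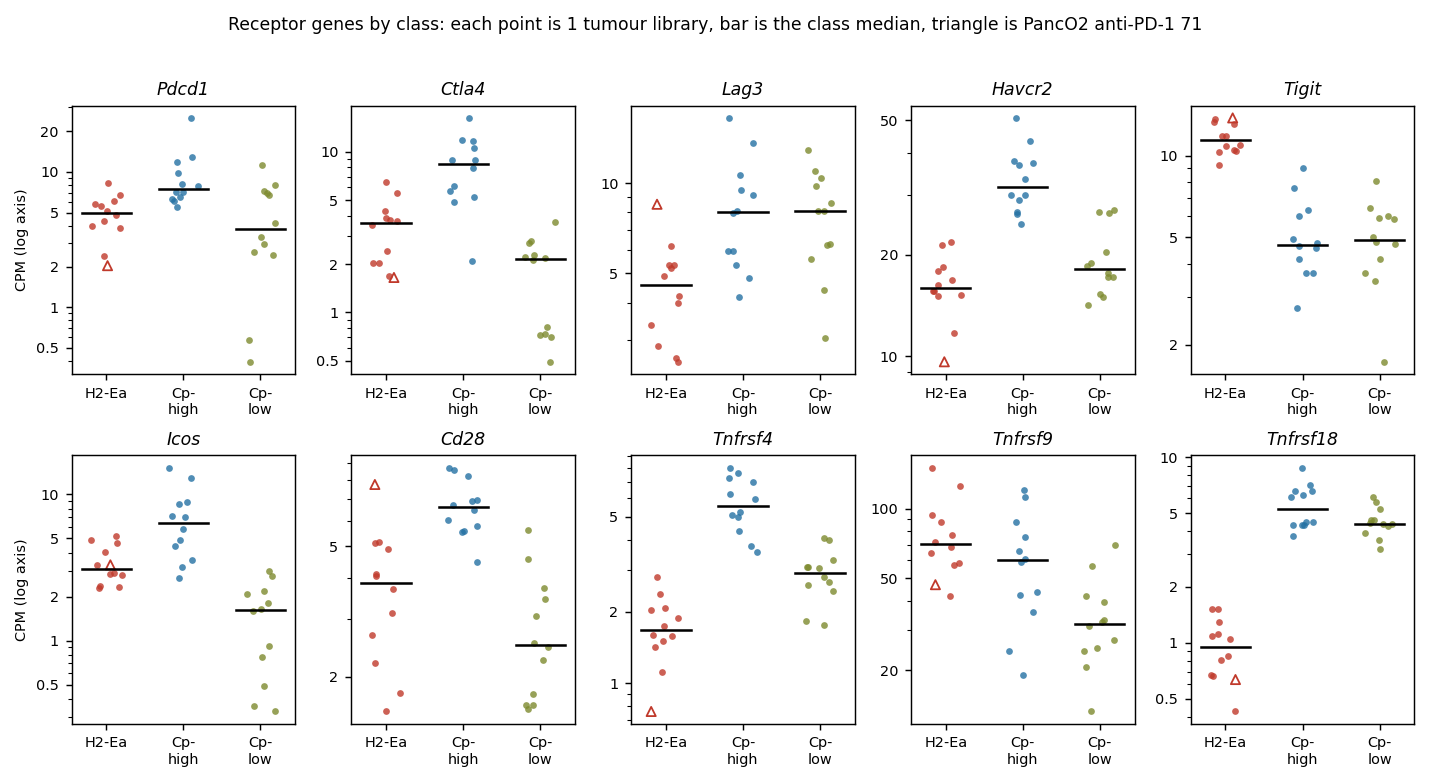
CPM (log axis) of the 10 receptor genes in 36 tumour libraries, by expression class; each point is 1 library, the bar is the class median and the triangle is PancO2 anti-PD-1 71. Tigit is higher, and Tnfrsf18 lower, in all 12 H2-Ea libraries than in the other 24.

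Levels were compared between genes per kilobase of exon (RPKM). Tnfrsf9 had the highest median RPKM in each class, at 25.8 in the H2-Ea, 22.0 in the Cp-high and 11.6 in the Cp-low class. In the H2-Ea class, Tnfrsf9, Tigit (12.4 RPKM) and Havcr2 (5.85 RPKM) followed each other with no overlap, and each of the remaining genes overlapped its neighbour in the order. In the Cp-high class the order was Tnfrsf9, Havcr2 (11.7 RPKM), Tigit (5.12 RPKM), Tnfrsf4 (4.08 RPKM), Pdcd1, Lag3, Ctla4, Tnfrsf18, Icos and Cd28 (1.08 RPKM), and in the Cp-low class Tnfrsf9, Havcr2 (6.65 RPKM), Tigit (5.33 RPKM), Lag3 (3.83 RPKM), Tnfrsf18 (2.88 RPKM), Tnfrsf4, Pdcd1, Ctla4, Icos and Cd28 (0.408 RPKM). Every neighbouring pair overlapped in these 2 classes. Cd28, which naive T cells already carry, was thus last or next to last per length in each class.

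The bases before the start sites of Tigit and Tnfrsf9 are shown, because Tigit was the only receptor higher throughout the H2-Ea class and Tnfrsf9 the highest per length in each class. RefSeq promoter windows (GRCm38.p6, from 250 bases before to 50 bases after a start) were found for 7 of the 10 genes, and the 250 bases before the start are printed 5′ to 3′ on the strand of the gene. Tigit is at chr16:43664185-43664434 on the minus strand, and Tnfrsf9, which has 2 starts in RefSeq, is shown for the first of them at chr4:150919905-150920154 on the plus strand. Capitals mark matches, on either strand, to GGAAAA (an NFAT core), TGANTCA (AP-1), TGTGGT (RUNX) or ACGTG (the hypoxia response core, searched after the values were seen).
Tigit: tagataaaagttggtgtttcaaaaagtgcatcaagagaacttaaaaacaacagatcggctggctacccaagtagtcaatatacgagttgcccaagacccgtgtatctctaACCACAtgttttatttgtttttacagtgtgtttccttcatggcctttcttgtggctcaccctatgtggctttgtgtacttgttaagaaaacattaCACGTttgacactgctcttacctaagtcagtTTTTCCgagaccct
Tnfrsf9: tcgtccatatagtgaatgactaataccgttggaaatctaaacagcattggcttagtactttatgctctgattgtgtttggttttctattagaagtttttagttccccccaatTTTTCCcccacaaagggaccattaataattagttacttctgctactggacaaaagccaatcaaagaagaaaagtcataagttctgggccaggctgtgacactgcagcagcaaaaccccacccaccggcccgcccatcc

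The Tigit window held 1 RUNX, 1 ACGTG and 1 GGAAAA match, each on the other strand, and the first Tnfrsf9 window 1 GGAAAA match on the other strand. The window of the second Tnfrsf9 start, not printed, held 1 TGANTCA match before the start. It also held 1 TGTGGT match on the same strand, after the start. Among 32851 RefSeq promoter windows of 300 bases, 23.4% held GGAAAA, 7.81% TGANTCA, 16.8% TGTGGT and 19.6% the ACGTG core. The AP-1 motif reads the same on both strands, so a match counts on both. A match is a description of the letters, and no binding was measured.

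Pdcd1 (chromosome 1, 94038305 to 94052553, minus strand; GRCm38, as are all gene positions here) had CD8 T cell transcripts as its closest companions. It ran from 2.03 to 8.25 CPM in the H2-Ea class (median 5.0), from 5.54 to 25.1 CPM in the Cp-high class (median 7.50) and from 0.395 to 11.3 CPM in the Cp-low class (median 3.76). The classes overlapped, and the lowest H2-Ea value was that of PancO2 anti-PD-1 71, without which the class began at 2.38 CPM. The extremes, 13 counts in CT26 IgG 24 and 594 counts in PancO2 anti-CTLA4 57, lay 63.5-fold apart in CPM. Cd8a, a chain of the CD8 coreceptor, lay at 0.851 and 57.9 CPM in the same libraries.

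Within classes, log2 CPM of Pdcd1 and Cd8a correlated with Pearson's r = 0.905 in 11 H2-Ea libraries (permutation p = 0.00031, adjusted p = 0.00507 over 180 relations), with Spearman's rho = 0.845 (p = 0.0019, adjusted p = 0.0228). In 12 Cp-high libraries, r was 0.911 (permutation p = 3e-05, adjusted p = 0.00135) and rho was 0.825 (p = 0.00167, adjusted p = 0.0225). In 12 Cp-low libraries, r was 0.985 (permutation p = 1e-05, the smallest that 100000 permutations can give, adjusted p = 0.0009) and rho was 0.972 (p = 1e-05, adjusted p = 0.0018). Without the 2 libraries farthest from the median of Cd8a, r was still 0.866, 0.831 and 0.952. With these fewer libraries, 0 relations with Cd8a passed by Pearson's r after adjustment in the H2-Ea and Cp-high classes. Among 13628 genes compared, the 3 with the highest mean r to Pdcd1 over the classes were Cd8a (0.934), Cd8b1 (0.924), which encodes the other CD8 chain, and Themis (0.917), a T cell signalling gene. This ranking is a description and carries no p.

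The ratio of Pdcd1 to Cd3e had medians of 1.07 in the H2-Ea class (0.186 to 1.58), 0.769 in the Cp-high class (0.553 to 1.10) and 0.856 in the Cp-low class (0.371 to 1.09), and the ranges overlapped. The lowest H2-Ea ratio was that of PancO2 anti-PD-1 71, and the class otherwise began at 0.819. The slope of Pdcd1 on Cd3e, both as log2 CPM with a prior count of 2, was 0.73 (SE 0.16) in the H2-Ea class, 1.02 (SE 0.17) in the Cp-high class and 0.97 (SE 0.10) in the Cp-low class. A slope of 1 stands for a constant ratio.

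Lag3 (chromosome 6, 124904361 to 124911705, minus strand), a gene 16139 bases from Cd4 whose product binds class II molecules, was the receptor closest to Pdcd1, with a mean r of 0.83 over the 3 classes. It ran from 2.54 to 8.50 CPM in the H2-Ea class (median 4.56, highest in PancO2 anti-PD-1 71 and otherwise at most 6.19), from 4.17 to 16.5 CPM in the Cp-high class (median 8.02) and from 3.04 to 12.9 CPM in the Cp-low class (median 8.08). It correlated with Cd3e in each class, with r = 0.877 in the H2-Ea class (permutation p = 0.00065, adjusted p = 0.009), 0.727 in the Cp-high class (p = 0.00699, adjusted p = 0.0398) and 0.885 in the Cp-low class (p = 0.00015, adjusted p = 0.00386). Spearman's rho was 0.818 (permutation p = 0.00361, adjusted p = 0.0316), 0.685 (p = 0.0164, adjusted p = 0.072) and 0.832 (p = 0.00129, adjusted p = 0.022), and r without the 2 farthest libraries was 0.881, 0.716 and 0.806. In contrast to Pdcd1, the slope in the Cp-low class was 0.37 (SE 0.062). The genes most like Lag3 were Cxcr6 (mean r 0.870), a chemokine receptor of tissue T cells, and the class I genes H2-K1 (0.864) and H2-Q4 (0.851). H2-K1 and H2-Q4 belong to a family of near-identical genes and their counts are uncertain.

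In the 2 libraries with the fewest counts of Cd3e, every receptor but Pdcd1 in 1 of them had a higher ratio to Cd3e than in the Cp-low library richest in Cd3e, by very different amounts. The Cp-low library CT26 anti-PD-1 40 had 15 counts of Cd3e, 14 of Pdcd1, 18 of Ctla4, 8 of Icos, 39 of Cd28, 43 of Tnfrsf4, 108 of Lag3, 374 of Havcr2, 102 of Tigit, 507 of Tnfrsf9 and 88 of Tnfrsf18. Its ratios to Cd3e were 0.933 for Pdcd1 (95% interval 0.417 to 2.07, exact binomial, counting error only) and 24.9 for Havcr2 (14.9 to 45). CT26 IgG 24, also in the Cp-low class, had 35 counts of Cd3e, 13 of Pdcd1, 23 of Ctla4, 30 of Icos, 54 of Cd28, 100 of Tnfrsf4, 100 of Lag3, 492 of Havcr2, 57 of Tigit, 1304 of Tnfrsf9 and 105 of Tnfrsf18. By comparison, MC38 IgG 2, the Cp-low library with the highest Cd3e, had 503 counts of Cd3e, 248 of Pdcd1, 65 of Ctla4, 85 of Icos, 173 of Cd28, 101 of Tnfrsf4, 396 of Lag3, 831 of Havcr2, 198 of Tigit, 1011 of Tnfrsf9 and 141 of Tnfrsf18. The ratio of Pdcd1 was 0.933 and 0.371 in the 2 libraries poor in Cd3e and 0.493 in MC38 IgG 2, that of Ctla4 1.2 and 0.657 against 0.129, that of Icos 0.533 and 0.857 against 0.169, and that of Tnfrsf9 33.8 and 37.3 against 2.01. These libraries were picked for their Cd3e, so their ratios are a description.

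Havcr2 (chromosome 11, 46454935 to 46481255, plus strand) ran from 9.64 to 21.8 CPM in the H2-Ea class (median 15.9), from 24.7 to 50.7 CPM in the Cp-high class (median 31.8) and from 14.2 to 27 CPM in the Cp-low class (median 18.1). The lowest value was that of PancO2 anti-PD-1 71, and the H2-Ea class otherwise began at 11.7 CPM, still wholly below the Cp-high class. Relative to Cd3e the class medians were close, at 3.38, 3.28 and 3.52, but the ratios were widely spread and the classes overlapped. In the H2-Ea class they ran from 0.884 to 6.64, lowest in PancO2 anti-PD-1 71 and otherwise from 2.09. In the Cp-low class the ratio was 1.52 in MC38 anti-CTLA4 10 and 24.9 in CT26 anti-PD-1 40. On log2 scales, the slope of Havcr2 on Cd3e was 0.17 in the H2-Ea, 0.48 in the Cp-high and 0.16 in the Cp-low class.

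Of the 6 reference genes, Havcr2 had its highest r with Ncr1 in the H2-Ea class, with Cd8a in the Cp-high class and with Cd4 in the Cp-low class. In the H2-Ea class it correlated with Ncr1, an activating receptor of NK cells (r = 0.882, permutation p = 0.00013, adjusted p = 0.00386, n = 11; rho = 0.845, p = 0.00175, adjusted p = 0.0225), and r was 0.873 without the 2 farthest libraries. In the Cp-high class r with Ncr1 was 0.0924 (permutation p = 0.774, adjusted p = 0.883; rho = 0.189, p = 0.557; −0.0409 without the 2 farthest) and in the Cp-low class 0.343 (p = 0.271, adjusted p = 0.440; rho = 0.294, p = 0.353; 0.104 without the 2 farthest). In the Cp-low class r with Cd4 was 0.824 (adjusted p = 0.0112; rho = 0.769, adjusted p = 0.0346; 0.668 without the 2 farthest; permutation tests). With Cd8a, r was instead 0.872 in the Cp-high class (permutation p = 0.00013, adjusted p = 0.00386; rho = 0.867, p = 0.00061, adjusted p = 0.0157; 0.790 without the 2 farthest) and 0.354 in the H2-Ea class (p = 0.283, adjusted p = 0.453; rho = 0.373, p = 0.263; 0.371 without the 2 farthest). The difference between classes was not tested. Ncr1 itself ran from 2.41 to 6.15 CPM in the 11 H2-Ea libraries, a 2.55-fold span, from 0.164 to 0.807 CPM in the Cp-high class (4.91-fold) and from 0.261 to 1.55 CPM in the Cp-low class (5.94-fold). The lowest Cp-high value was 3 counts, in CT26 IgG 28. Counting error therefore weighs more on Ncr1 outside the H2-Ea class, and a low r there does not show that a relation was absent. Across classes, the gene most like Havcr2 was Slamf7 (mean r 0.835), a receptor of NK, T and myeloid cells.

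Tigit (chromosome 16, 43648867 to 43664146, minus strand), which binds the poliovirus receptor on other cells, was the only 1 of the 10 receptors that was higher throughout the H2-Ea class than in both other classes. For each class singly, 1 of 10 receptors stood against 10.7% (Cp-high) and 8.37% (Cp-low) of all genes, which is close to that share. How many genes were higher than in both classes was not counted. It ran from 9.23 to 13.8 CPM there (median 11.4), a 1.5-fold span, against 2.73 to 9.04 CPM in the Cp-high class (median 4.70) and 1.73 to 8.11 CPM in the Cp-low class (median 4.90). Without PancO2 anti-PD-1 71 the highest H2-Ea value was 13.7 CPM. The distance varied between labelled groups. In CT26 anti-PD-1 the H2-Ea library had 11.8 CPM and the other 3 had between 3.69 and 4.17 CPM, whereas in PancO2 anti-CTLA4 they came closer, at 10.4 CPM against 2.73 to 9.04 CPM.

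The ratio of Tigit to Cd3e had a median of 2.46 in the H2-Ea class (1.27 to 5.04, lowest in PancO2 anti-PD-1 71 and otherwise from 1.66), 0.446 in the Cp-high class (0.273 to 0.766) and 0.955 in the Cp-low class (0.394 to 6.80). Each H2-Ea library lay above each Cp-high library (1 of 10 receptors, against 9.1% of genes in that direction), with medians 5.52-fold apart, and 0 of 10 receptors were lower throughout (against 2.52%, and 11.6% in either direction). Against the Cp-low class the ratio overlapped, as it did for each of the 10 receptors (0 of 10, against 1.52% of genes higher, 1.94% lower and 3.46% in either direction). Between the Cp-high and Cp-low classes 0 of 10 ratios were separate (against 1.02% of genes higher in the Cp-high class, 4.37% lower and 5.39% in either direction). These counts rest in part on libraries with few counts of Cd3e. Without the 11 libraries under 100 counts of Cd3e, 2 of 10 ratios were separate from the Cp-high class (Tigit higher, Tnfrsf18 lower; 25.0% of genes) and 4 of 10 from the Cp-low class (Tigit, Icos and Tnfrsf9 higher, Tnfrsf18 lower; 12.1% of genes). Of the 5 NK cell markers, Ncr1 was also higher in each H2-Ea library than in the other classes, Klra8 was lower, at 0 throughout, and Klrc2, Klre1 and Klrb1c overlapped, with Klrb1c highest by median in the Cp-low class (1.39 CPM against 0.948 in the H2-Ea class). Within the H2-Ea class r of Tigit with Ncr1 was −0.226 (permutation p = 0.499, adjusted p = 0.651; rho = −0.255, p = 0.450, adjusted p = 0.629) and 0.169 without the 2 farthest libraries. Their part in the level of Tigit was not tested.

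Within the Cp-high class Tigit correlated with Cd8a (r = 0.879, permutation p = 0.00021, adjusted p = 0.0046, n = 12; rho = 0.790, p = 0.00344, adjusted p = 0.0316; 0.680 without the 2 farthest), and in the H2-Ea class r was 0.137 (p = 0.690, adjusted p = 0.828; rho = 0.282, p = 0.402; 0.289 without the 2 farthest). Runx3, a transcription factor of CD8 T cells and NK cells, was the gene most like Tigit (r = 0.820, 0.618 and 0.774 in the H2-Ea, Cp-high and Cp-low classes). Its level did not follow Tigit between classes, because Runx3 was highest in the Cp-high class, at a median of 64.1 CPM, against 28.8 CPM in the H2-Ea class and 25.9 CPM in the Cp-low class.

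**Figure D2:**
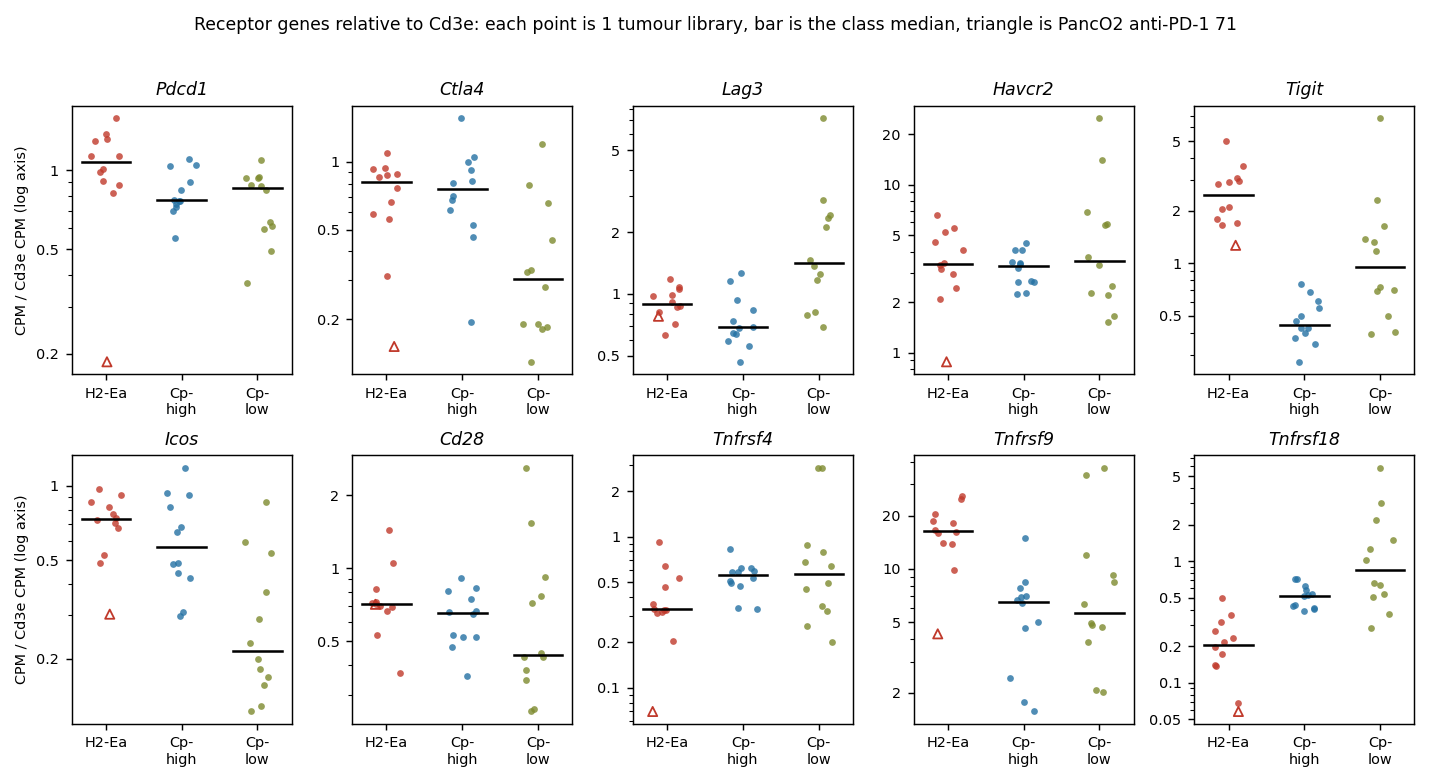
Ratio of the CPM of each receptor gene to the CPM of Cd3e (log axis) in 36 tumour libraries, by expression class; each point is 1 library, the bar is the class median and the triangle is PancO2 anti-PD-1 71. The ratio of Tigit is higher in each H2-Ea library than in each Cp-high library, and the Cp-low class reaches the highest ratio for 7 of the 10 genes.

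Ctla4, Icos and Cd28 lie in a row on chromosome 1, on the plus strand, with Cd28 from 60716800 to 60773359, Ctla4 from 60887000 to 60915832 and Icos from 60977927 to 61000320. The gaps are 113640 and 62094 bases. Ctla4 ran from 1.65 to 6.52 CPM in the H2-Ea class (median 3.60, lowest in PancO2 anti-PD-1 71 and otherwise from 1.69), from 2.08 to 16.2 CPM in the Cp-high class (median 8.38) and from 0.493 to 3.63 CPM in the Cp-low class (median 2.15). Icos ran from 2.28 to 5.22 CPM (median 3.08), from 2.69 to 15.3 CPM (median 6.42) and from 0.327 to 2.99 CPM (median 1.63) in the same order. The classes overlapped for both genes. Cd28 differed less, with medians of 3.88, 6.58 and 2.50 CPM and ranges of 1.56 to 7.74, 4.47 to 8.71 and 1.60 to 5.63 CPM. Its highest H2-Ea value was that of PancO2 anti-PD-1 71, without which the class reached 5.17 CPM.

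Relative to Cd3e, the Cp-low class had the lowest medians of these 3 genes. Ctla4 per Cd3e had medians of 0.815 in the H2-Ea, 0.754 in the Cp-high and 0.301 in the Cp-low class, Icos 0.733, 0.566 and 0.215, and Cd28 0.711, 0.652 and 0.440. The ranges overlapped for each. Foxp3, the transcription factor of regulatory T cells, had medians of 1.20, 3.68 and 1.06 CPM in the same order, and Cd4 1.89, 6.31 and 1.62 CPM. The part of regulatory and CD4 T cells in these levels was not tested. Some of the counts of Foxp3 are uncertain, because 18.6% of its exonic length is shared with Flicr and 12.9% with Ccdc22.

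Icos correlated with Foxp3 in the Cp-high class (r = 0.859, permutation p = 0.00041, adjusted p = 0.00615, n = 12; rho = 0.769, p = 0.00502, adjusted p = 0.0348; 0.723 without the 2 farthest), and with Cd4 in the Cp-low class (r = 0.836, p = 0.00106, adjusted p = 0.0112; rho = 0.895, p = 0.00023, adjusted p = 0.00828; 0.819 without the 2 farthest). Ctla4 correlated with Cd4 in the Cp-low class by Pearson's r (0.824, permutation p = 0.00172, adjusted p = 0.0135; 0.916 without the 2 farthest) and not by Spearman's rho after adjustment (0.678, p = 0.0183, adjusted p = 0.075). In the Cp-high class r of Ctla4 with Cd4 was 0.0939 (p = 0.776, adjusted p = 0.883; rho = 0.112, p = 0.730; −0.146 without the 2 farthest). The relation of Icos with Foxp3 was not found in each class. With Foxp3, 0 of 10 receptors passed after adjustment in the H2-Ea class and 0 of 10 in the Cp-low class. In the H2-Ea class, r with Foxp3 was positive for 2 of 10 receptors. Without the 2 farthest libraries it was positive for 0 of 10 there, between −0.702 and −0.206. Ctla4 and Icos correlated with each other with a mean r of 0.77 over the classes.

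Outside the 10 receptors, the genes most like each of the 3 differed. Those of Icos were Ly6a (mean r 0.880), an interferon-induced surface protein, Tgtp1 (0.870), an interferon-induced GTPase with a close copy that makes its counts uncertain, and Il2ra (0.865), the IL-2 receptor chain of activated and regulatory T cells. Those of Ctla4 were Pfkp (0.794), a glycolytic enzyme, Gzmb (0.793), a cytotoxic granule protease, and Coro2a (0.753). Those of Cd28 were Gpr174 (0.841), a lymphocyte receptor, Ms4a4b (0.784) and Themis (0.780).

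Tnfrsf4 and Tnfrsf18 are neighbours on chromosome 4, at 156013843 to 156016612 and 156026164 to 156028895 on the plus strand, 9551 bases apart. Both were lower in each H2-Ea library than in each Cp-high library. Tnfrsf4 ran from 0.761 to 2.79 CPM in the H2-Ea class (median 1.67, lowest in PancO2 anti-PD-1 71 and otherwise from 1.12), from 3.56 to 8.04 CPM in the Cp-high class (median 5.57) and from 1.76 to 4.06 CPM in the Cp-low class (median 2.91). Tnfrsf18 ran from 0.427 to 1.53 CPM (median 0.947), from 3.78 to 8.79 CPM (median 5.29) and from 3.19 to 6.10 CPM (median 4.38) in the same order. The H2-Ea median of Tnfrsf18 was 5.58-fold below that of the Cp-high class and 4.63-fold below that of the Cp-low class. An antisense gene, Gm16008, shares 414 bases or 27.2% of the exonic length of Tnfrsf18, and whether counting used strand is not given in the sources used here, so reads of this stretch may belong to either gene.

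Relative to Cd3e, Tnfrsf18 had a median of 0.206 in the H2-Ea class (0.0581 to 0.50), 0.518 in the Cp-high class (0.386 to 0.714) and 0.844 in the Cp-low class (0.280 to 5.87). The classes overlapped on this scale, although 11 of 12 H2-Ea libraries lay below the whole Cp-high class. The lowest ratio was that of PancO2 anti-PD-1 71, with 5 counts, and the class otherwise began at 0.0682. Tnfrsf4 had medians of 0.330, 0.556 and 0.571. Tnfrsf18 correlated with Cd3e in the Cp-high class (r = 0.815, permutation p = 0.00118, adjusted p = 0.0112, n = 12; rho = 0.748, p = 0.00696, adjusted p = 0.0418; 0.661 without the 2 farthest), and in the H2-Ea class r was 0.0244 (p = 0.943, adjusted p = 0.975; rho = 0.0364, p = 0.925, adjusted p = 0.973; −0.109 without the 2 farthest). In the Cp-low class it was 0.592 (p = 0.0425, adjusted p = 0.123; rho = 0.538, p = 0.0760, adjusted p = 0.193; 0.130 without the 2 farthest). The H2-Ea libraries used here had only 0.427 to 1.53 CPM of Tnfrsf18. Counting error therefore weighs more on it in that class, and a low r there does not show that a relation was absent. Tnfrsf4 correlated with Foxp3 in the Cp-high class (r = 0.819, permutation p = 0.00111, adjusted p = 0.0112; rho = 0.776, p = 0.00411, adjusted p = 0.0322; 0.715 without the 2 farthest). The other classes did not share this relation. In the H2-Ea class, r with Foxp3 was positive for 2 of the 10 receptors and lay between −0.463 and 0.200. In the Cp-low class it was positive for all 10, between 0.0539 and 0.667, and 0 of 10 passed after adjustment in either class.

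Tnfrsf9 (chromosome 4, 150914562 to 150946102, plus strand) was the most abundant of the receptors per length, and in the Cp-high and Cp-low classes it had the lowest r with Cd3e of the 10. It ran from 42 to 151 CPM in the H2-Ea class (median 70.2), from 19.1 to 120 CPM in the Cp-high class (median 59.8) and from 13.3 to 69.8 CPM in the Cp-low class (median 31.6). Relative to Cd3e its medians were 16.4, 6.53 and 5.65, with ranges of 4.30 to 25.9, 1.57 to 15.0 and 2.01 to 37.3 that overlapped. The lowest H2-Ea ratio was that of PancO2 anti-PD-1 71, and the class otherwise began at 9.92. Its r with Cd3e was 0.734 in the H2-Ea class (permutation p = 0.00959, adjusted p = 0.0479; rho = 0.827, p = 0.00251, adjusted p = 0.0282; 0.875 without the 2 farthest), 0.0163 in the Cp-high class (p = 0.960, adjusted p = 0.979; rho = −0.00699, p = 0.991; 0.165 without the 2 farthest) and 0.380 in the Cp-low class (p = 0.223, adjusted p = 0.383; rho = 0.413, p = 0.184; 0.474 without the 2 farthest).

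The genes most like Tnfrsf9 came from outside the T cell genes. They were Map2k1 (mean r 0.929), a kinase of the MAP kinase cascade, Hilpda (0.928), a lipid droplet protein induced by hypoxia, and Slc2a1 (0.927), the glucose transporter GLUT1. Slc2a1 had r = 0.886 with Tnfrsf9 in the H2-Ea, 0.958 in the Cp-high and 0.938 in the Cp-low class. The level between classes did not follow, because Slc2a1 had medians of 158, 119 and 162 CPM in that order while Tnfrsf9 was lowest in the Cp-low class. These relations were found by ranking 13628 genes and carry no p.

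Tnfrsf9 ran against Csf1r, the receptor of macrophage growth factor. Its r was −0.846 in the H2-Ea class (permutation p = 0.00109, adjusted p = 0.0112; rho = −0.809, p = 0.00386, adjusted p = 0.0316; −0.638 without the 2 farthest) and −0.840 in the Cp-low class (p = 0.00027, adjusted p = 0.00486; rho = −0.825, p = 0.00146, adjusted p = 0.022; −0.771 without the 2 farthest). In the Cp-high class it was −0.609 (p = 0.0346, adjusted p = 0.106; rho = −0.587, p = 0.049, adjusted p = 0.136; −0.419 without the 2 farthest). Of 30 relations of receptors with Csf1r, these 2 were the only ones past the adjusted threshold.

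**Figure D3:**
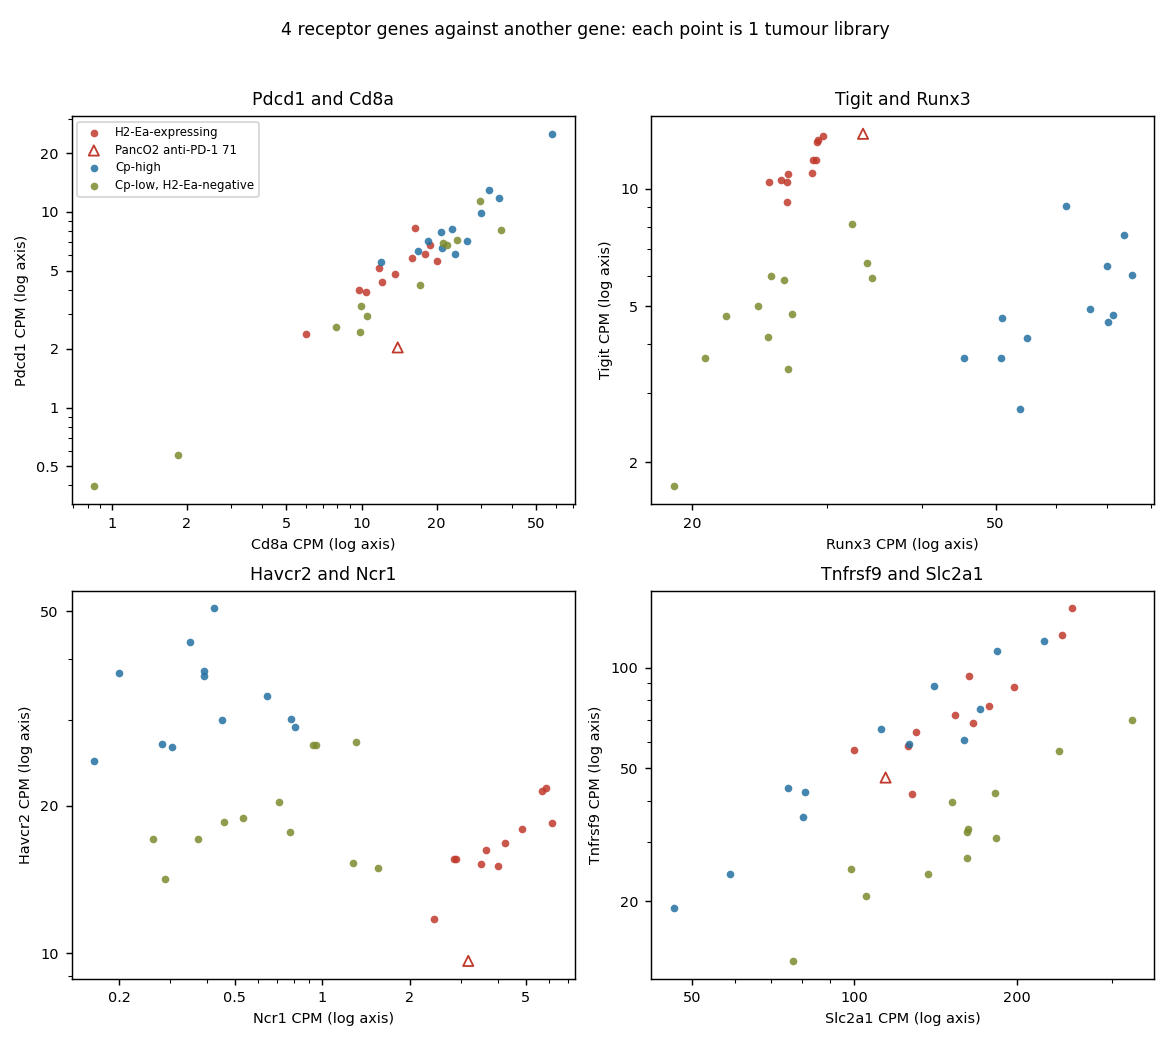
CPM of 4 receptor genes against a second gene in 36 tumour libraries (log axes); each point is 1 library, coloured by expression class, and the triangle is PancO2 anti-PD-1 71. Pdcd1 and Cd8a lie along 1 line in all classes, whereas Tigit and Runx3, and Havcr2 and Ncr1, lie in separate bands by class. For Tnfrsf9 and Slc2a1, the H2-Ea and Cp-high classes share a band. The Cp-low class lies apart from it, with less Tnfrsf9 at a similar level of Slc2a1.

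Over all receptors, the relation with Cd3e was positive in 30 of 30 pairs of receptor and class. Of these, 14 passed by Pearson's r and 9 by Spearman's rho after adjustment over 180 relations with 6 reference genes. Median r was 0.637 in the H2-Ea, 0.706 in the Cp-high and 0.710 in the Cp-low class. All receptors and Cd3e were scaled to the same library total and came from the same tumour, and the relations are therefore not independent. Relations with Cd8a were also positive in 30 of 30, and 11 passed by each coefficient. With Cd4, 6 of 30 passed by Pearson's r, with Foxp3 2, with Ncr1 1 and with Csf1r 2. Without the 2 farthest libraries, which leaves fewer libraries in each class, 1 of 30 relations with Cd3e, 1 of 30 with Cd8a and 3 of 180 in all passed after adjustment. Median r over the 30 relations was then 0.590 with Cd3e, against 0.696 before, and 0.675 with Cd8a, against 0.636 before, and 14 and 16 of 30 had an unadjusted permutation p under 0.05, against 23 and 18 before. With PancO2 anti-PD-1 71 included, 11 of 30 and 31 of 180 passed.

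**Figure D4:**
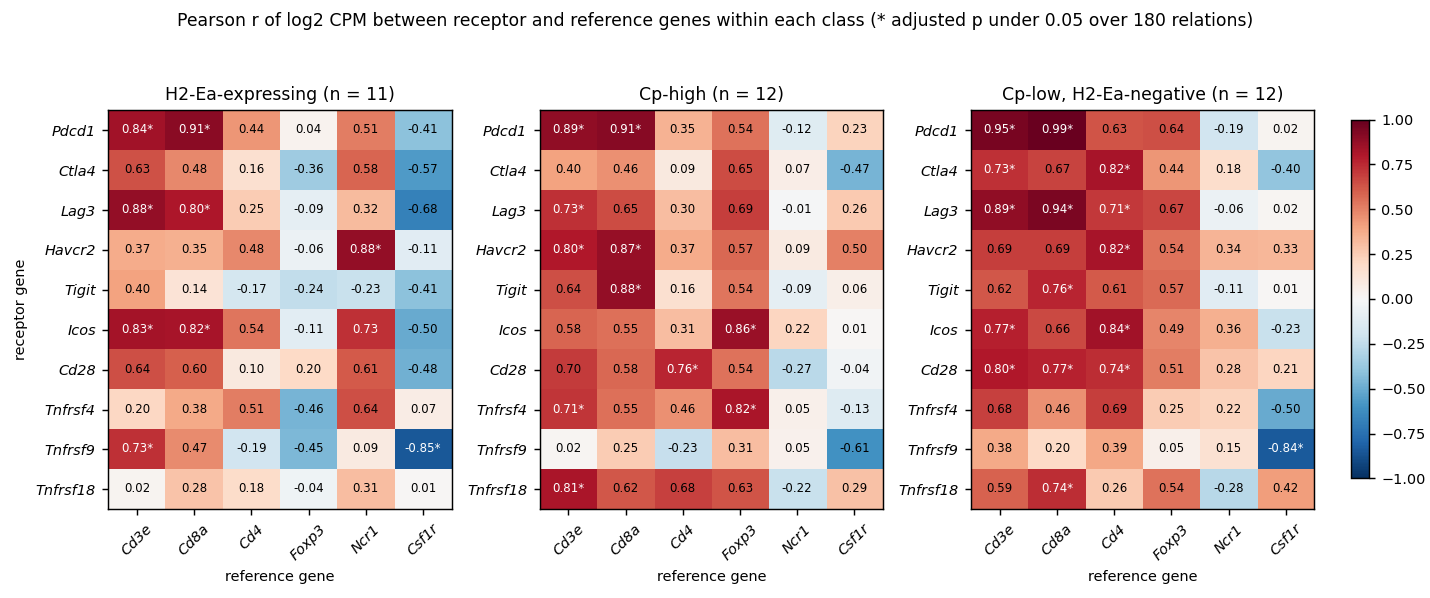
Pearson's r of log2 CPM of each receptor gene (rows) with each of 6 reference genes (columns) within the 3 expression classes, without PancO2 anti-PD-1 71 (n = 11, 12 and 12 libraries); the colour runs from negative to positive r. The relations with Cd3e and Cd8a are positive throughout, and that of Tnfrsf9 with Csf1r is negative in all 3 classes.

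Separate ranges were also counted for other genes of the same pathway. Of 13 ligand genes, 2 were higher and 3 lower in each H2-Ea library than in each Cp-high library (against 10.7% and 16.6% of all genes). Between the H2-Ea and Cp-low classes 4 were higher and 5 lower in the H2-Ea class (against 8.37% and 14.9%). Between the Cp-high and Cp-low classes 0 were higher and 2 lower in the Cp-high class (against 13% and 13.6%). Ceacam1, a ligand of TIM-3, had medians of 42.7 CPM in the H2-Ea, 1.79 in the Cp-high and 2.68 in the Cp-low class, and Icosl, the ligand of ICOS, 5.70, 25.4 and 22.0 CPM. Tnfsf4, the ligand of OX40, had medians of 0.439, 0.747 and 4.51 CPM, and Tnfsf18, the ligand of GITR, 0.200, 1.23 and 0.684 CPM with overlapping ranges. Pvr, a ligand of TIGIT, was higher in each H2-Ea library (144 to 264 CPM) than in each Cp-low library (34.8 to 75.8 CPM) and overlapped the Cp-high class (51.6 to 156 CPM). Nectin2, another ligand of TIGIT, was instead lower in each H2-Ea library (12.8 to 25.9 CPM) than in each Cp-low library (30.5 to 38.5 CPM). It overlapped the Cp-high class. Lgals9, another ligand of TIM-3, had medians of 66.4, 135 and 106 CPM. Each H2-Ea library lay below each library of the other classes for Lgals9. Tumour cells can carry ligands too, and their source was not tested.

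Among 10 further checkpoint and costimulatory receptors, Tnfrsf25 and Btla were lower in each H2-Ea library than in each Cp-high library (2 of 10, against 16.6% of genes) and 0 were higher (against 10.7%). Tnfrsf25 and Vsir were lower throughout than in the Cp-low class (2 of 10, against 14.9%), and Tnfrsf25 was higher in the Cp-high than in the Cp-low class (1 of 10, against 13%). Tnfrsf25, a death domain receptor of T cells, ran from 18.3 to 58.5 CPM in the Cp-high class, with a median of 32.1 CPM, against medians of 0.706 and 1.88 CPM in the H2-Ea and Cp-low classes. Btla, an inhibitory receptor, had medians of 1.11, 8.18 and 1.47 CPM in the order H2-Ea, Cp-high and Cp-low. Cd40lg stayed at or under 0.455 CPM in every library, and Cd226, which shares ligands with TIGIT, had medians of 1.57, 2.42 and 0.912 CPM.

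Of 10 regulators of activation and exhaustion, Nr4a2 was higher (1 of 10, against 10.7% of genes) and Tcf7 and Entpd1 were lower (2 of 10, against 16.6%) in each H2-Ea library than in each Cp-high library, shares close to those of all genes. The same 3 genes were separate between the H2-Ea and Cp-low classes, and Tcf7 was higher and Eomes and Prdm1 lower in the Cp-high than in the Cp-low class. Tcf7, a transcription factor of stem-like T cells, had medians of 1.44 CPM in the H2-Ea, 74.1 in the Cp-high and 26 in the Cp-low class. Its levels spanned 65.0 to 87.2 CPM in the Cp-high and 22.2 to 34.2 CPM in the Cp-low class, the latter including the libraries with the fewest counts of Cd3e. Nr4a2, an early response factor, had medians of 33.3, 6.71 and 8.39 CPM. Eomes, a T-box factor of CD8 T and NK cells, had 4.28, 1.92 and 9.69 CPM, and Prdm1 21.6, 8.51 and 29.4 CPM. Of 6 regulatory T cell genes, Foxp3, Il2ra, Ikzf2 and Ccr8 were higher in each Cp-high library than in each Cp-low library (4 of 6, against 13% of genes), and 0 of 6 had separate ranges between the H2-Ea class and either other class (against 27.3% and 23.2%). These H2-Ea ranges include PancO2 anti-PD-1 71, and ranges without it were not compared for this list. For Foxp3, 11 of the 12 H2-Ea libraries lay below the whole Cp-high class. The H2-Ea medians of Il2ra (6.41 CPM) and Ikzf2 (3.08 CPM) lay below the lowest Cp-high values (9.50 and 12.1 CPM). The highest H2-Ea values of these 2 genes were 145 and 24.4 CPM. Of 10 receptor signalling genes, 0 had separate ranges between the H2-Ea and Cp-high classes (against 27.3% of genes), 1 between the H2-Ea and Cp-low classes (Pik3cd, lower in the H2-Ea class; against 23.2%) and 2 between the Cp-high and Cp-low classes (Ptpn11 and Traf1, lower in the Cp-high class; against 26.6%). Traf1, an adaptor of tumour necrosis factor receptors, had medians of 23.9, 13.8 and 37.9 CPM.

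The labelled comparisons set the receptors of 1 group, as labelled, against those of another. In the 6 comparisons of an antibody with IgG and the 3 comparisons of models among IgG libraries, edgeR's quasi-likelihood test called 0 of 10 receptors and 0% of the 16285 to 16510 genes tested at a Benjamini-Hochberg adjusted p under 0.05, and 0 receptors had an unadjusted p under 0.05. In 10 of 163 alternative fits, 1 or 2 receptors did. Between 25 and 912 genes per comparison had an unadjusted p under 0.05. Apart from PancO2 anti-PD-1 against IgG, with 912, each comparison had at most 98, fewer than the 1 in 20 that chance would give. DESeq2 and limma-voom also called 0 of 10 receptors, with at most 2 genes in all per comparison by DESeq2 and 0 by limma-voom. The libraries labelled as replicates came from different expression classes, so the spread within a labelled group was wide, and the 3 models' labels went against the data as described. Whether the treatment labels were right was not tested. The 0 calls therefore do not show that checkpoint blockade left the receptors unchanged.

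For Pdcd1, the target of anti-PD-1, the libraries labelled MC38 anti-PD-1 had 3.88, 11.8, 8.20 and 2.58 CPM and those labelled MC38 IgG 8.07, 5.18, 6.79 and 9.83 CPM. The log2 fold change was −0.19 (SE 0.46). In CT26, anti-PD-1 libraries had 0.573, 2.92, 2.38 and 6.09 CPM and IgG libraries 0.395, 5.62, 6.30 and 4.21 CPM, with a log2 fold change of −0.46 (SE 0.77). In PancO2, anti-PD-1 libraries had 6.09, 7.06, 7.88 and 2.03 CPM, the last in PancO2 anti-PD-1 71, and IgG libraries 7.12, 6.79, 7.21 and 8.25 CPM, with a log2 fold change of −0.30 (SE 0.65). It was −0.027 without PancO2 anti-PD-1 71. Each change was smaller than its standard error, and the groups overlapped.

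For Ctla4, the target of anti-CTLA4, the libraries labelled MC38 anti-CTLA4 had 11.7, 2.20, 2.18 and 4.26 CPM and those labelled MC38 IgG 2.11, 3.49, 2.42 and 8.89 CPM, with a log2 fold change of 0.29 (SE 0.94). In CT26, anti-CTLA4 libraries had 2.79, 3.70, 1.69 and 7.91 CPM and IgG libraries 0.699, 3.77, 4.88 and 2.28 CPM, with a log2 fold change of 0.51 (SE 0.84). In PancO2, anti-CTLA4 libraries had 10.6, 5.24, 0.720 and 3.85 CPM and IgG libraries 5.67, 3.63, 2.69 and 5.55 CPM, with a log2 fold change of 0.16 (SE 0.70). The groups overlapped in each model, and in each 1 library decided the direction, which turned to −0.55 without MC38 anti-CTLA4 8, to −0.067 without CT26 anti-CTLA4 36 and to −0.44 without PancO2 anti-CTLA4 57.

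The smallest p among the receptors belonged to Tnfrsf9 in PancO2, where anti-CTLA4 libraries had 35.7, 24.1, 24.2 and 56.9 CPM and IgG libraries 59.0, 31.0, 69.8 and 87.6 CPM. The log2 fold change was −0.85 (SE 0.45), with an unadjusted p of 0.082 in edgeR's quasi-likelihood test and an adjusted p of 1.0. The ratios to Cd3e were compared with exact two-sided permutation tests of 4 against 4 libraries, which cannot go below p = 0.0286. Of 60 such tests, 0 passed with or without adjustment, the smallest exact p was 0.114 and the smallest adjusted p was 0.988. The 5 pathway lists also had 0 genes called by edgeR in the 9 labelled comparisons, with 10 at an unadjusted p under 0.05 among 424 tests.

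**Figure D5:**
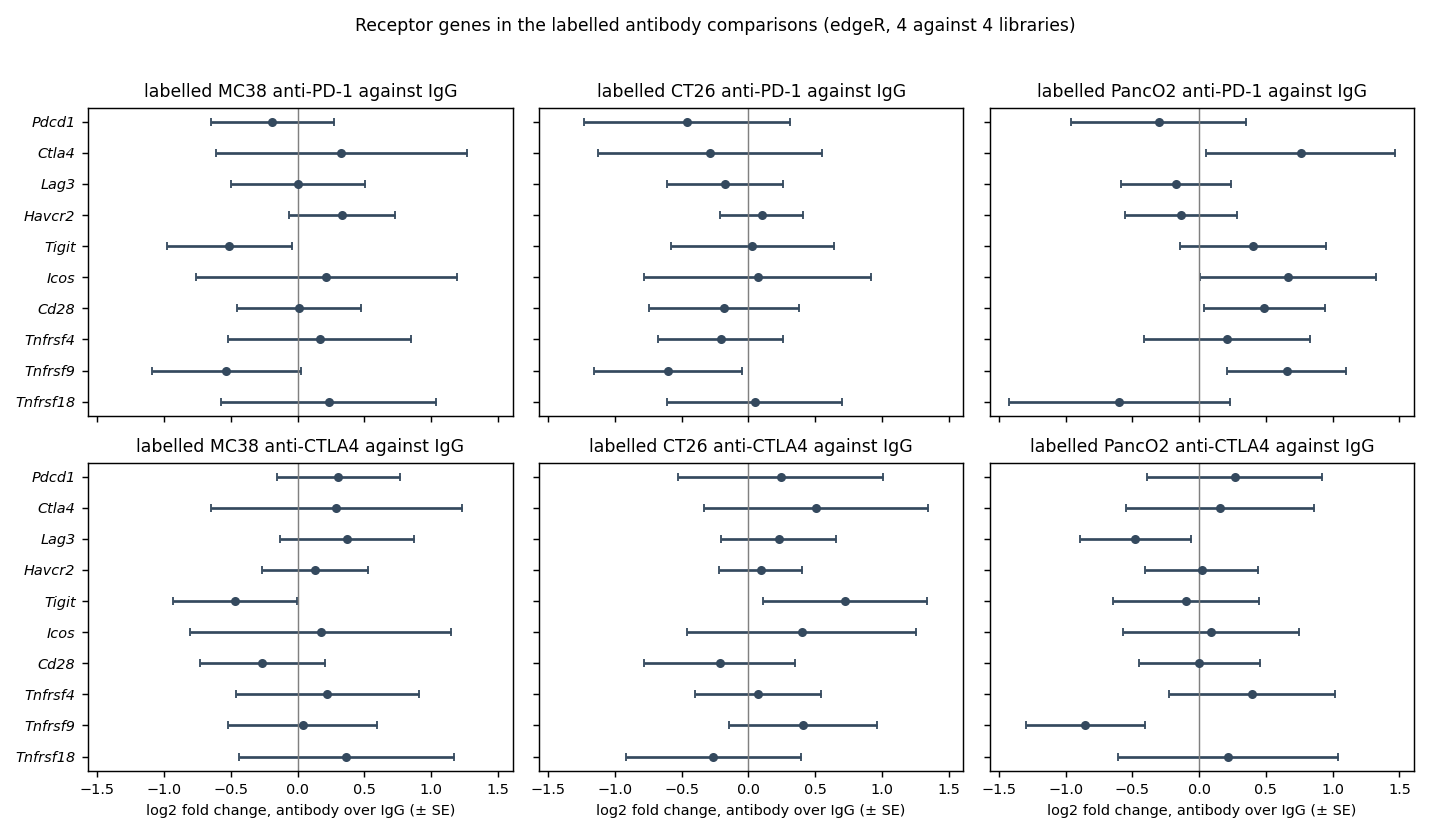
Log2 fold change of each receptor gene in the 6 labelled comparisons of an antibody with IgG (edgeR, 4 against 4 libraries); the point is the estimate and the bar its standard error in each direction. The estimates lie between −0.85 and 0.76, and 0 of 10 genes passed the test in any panel.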

How the data were processed

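RNA of 36 tumours was sequenced, 1 library each. Per the labels, libraries were made with an Illumina TruSeq V2 kit, whereas the study's methods name a stranded KAPA kit, so the kit is uncertain. The authors deposited raw counts of reads for each Ensembl gene, made with TopHat and Bowtie2 on mm10 and HTSeq (07.2 in the submitters' notes), after FastQC 0.11.5. The strand setting is not given in the sources used here. The 5 summary lines that name no gene held 44.8% to 63.4% of listed reads in 35 libraries and 86.5% in PancO2 anti-PD-1 71 and were left out. HTSeq sets aside reads with several positions, so genes with close copies are undercounted. Symbols were found for 32608 of 37417 identifiers, and exonic lengths and positions came from GENCODE vM21 (GRCm38).

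CPM is counts per 1000000 counts in genes, and RPKM is CPM per kilobase of merged exons. Precision is limited by counting error for low genes, and intervals cover only that. Labelled comparisons used edgeR 4.0.16 (filterByExpr, TMM, glmQLFTest, Benjamini-Hochberg) in R 4.3.3 on the 12 libraries of 1 labelled model or the 12 labelled IgG. Ratios to Cd3e (0.5 counts added to both) were tested with exact permutation tests. Correlations used log2 CPM (prior count 2) and 100000 permutations (Python 3.11.15, numpy 2.4.6, pandas 2.3.3, scipy 1.17.1). Figures used matplotlib 3.10.9. Alternatives were DESeq2 1.42.0, limma-voom (limma 3.58.1), DESeq2 size factors or no scaling, other filters, other prior counts, other libraries in the fit and leaving out each library. Steps were tested on simulated data.

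The genes, lists, classes and reference genes were chosen with earlier results of these data known. Named genes were the 10 receptors, the reference and class genes, the 3 genes outside the 10 receptors most like each receptor by mean r over the classes (mean of at least 1 CPM), up to 4 genes per list with the largest ratio of class medians, and the targets of the antibodies. An NF-kB motif was also searched in the promoter windows and, like some of the genes most like Havcr2, is not reported here. Of the list genes, Cd226, Cd40lg, Pvr, Nectin2, Lgals9, Traf1, Il2ra and those named in a count of separate ranges are named as well. Nothing says that tumours of a group came from separate experiments, so p-values measure the spread between these tumours.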

Additional observations from a re-analysis of the deposited data

Results flagged for a closer look

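In 7 of 99 sets of 4 libraries, formed by a receptor or Cd3e and a labelled group, 1 library lay far from the other 3. Chance flags about 1 in 20 sets, or 4.95 of 99. Pdcd1 was at 25.1 CPM in PancO2 anti-CTLA4 57 and between 2.42 and 5.54 CPM in the others of its group, and Ctla4 was at 16.2 CPM in MC38 anti-PD-1 17 against 0.816 to 2.08 CPM. Icos was at 13.0 CPM in MC38 anti-CTLA4 8 against 1.82 to 3.29 CPM, and Tnfrsf4 was at 5.10 CPM in CT26 anti-PD-1 46 against 1.5 to 1.83 CPM. These 4 libraries belong to the Cp-high class. So do PancO2 anti-CTLA4 58, at 5.54 CPM of Pdcd1, and MC38 anti-PD-1 18, at 2.08 CPM of Ctla4, which were among the others of their groups. Tigit was at 11.8 CPM in CT26 anti-PD-1 42 against 3.69 to 4.17 CPM and at 10.4 CPM in PancO2 IgG 54 against 5.85 to 6.34 CPM, and Tnfrsf9 was at 94.3 CPM in CT26 IgG 27 against 32.3 to 42.5 CPM. These 3 libraries belong to the H2-Ea class, to which no other library of their labelled groups belongs. No receptor had all libraries moved in opposite directions between 2 labelled models.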

How the results depend on the processing

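The count of receptors called in the 9 labelled comparisons was 0 under each of the 163 alternatives, and leaving out each library gave 0 to 0. Receptors at an unadjusted p under 0.05 numbered 0 in the fits reported and 1 or 2 in 10 of the 163, namely for CT26 against MC38 (1 with limma-voom and with either class-term fit, 2 without CT26 IgG 27), PancO2 against CT26 (2 with a class term and without PancO2 anti-PD-1 71), CT26 anti-CTLA4 (1 without CT26 IgG 27) and PancO2 anti-CTLA4 (1 with either class-term fit, without PancO2 IgG 49 and without PancO2 anti-CTLA4 62). Single fold changes were less stable. Pdcd1 under anti-PD-1 ranged from −0.66 to 0.080 in MC38 (0.080 without MC38 anti-PD-1 19), from −1.07 to −0.11 in CT26 and from −0.44 to −0.027 in PancO2 with each library left out. Ctla4 under anti-CTLA4 ranged from −0.55 (without MC38 anti-CTLA4 8) to 0.91 in MC38, from −0.067 to 0.88 in CT26 (lowest without CT26 anti-CTLA4 36), and from −0.44 to 0.56 in PancO2 (lowest without PancO2 anti-CTLA4 57). In PancO2 it was also −0.40 with limma-voom and −0.86 in a fit of all 36 libraries with a class term. It was −0.81 in that fit without PancO2 anti-PD-1 71, an alternative chosen after the data were seen. The cause of these turns was not tested. Over all genes, calls rose from 0 to 49 for PancO2 anti-PD-1 in a fit of all 36 libraries and reached 2 with DESeq2 there and for PancO2 anti-CTLA4, 1 with DESeq2 for PancO2 and for CT26 against MC38, and 2 for CT26 anti-CTLA4 with a class term and without PancO2 anti-PD-1 71.

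Separate ratios to Cd3e numbered 2 instead of 1 between the H2-Ea and Cp-high classes and 4 instead of 0 between the H2-Ea and Cp-low classes without libraries under 100 counts of Cd3e, an alternative with fewer libraries. Correlations with Cd3e that passed fell from 14 to 1 of 30, and those with any reference gene from 36 to 3 of 180, without the 2 farthest libraries. Of 300 single correlations under alternatives, which cover only a part of the 180 relations, 249 kept their sign and side of the threshold. The turns of sign listed next are those among these 300. The sign turned with PancO2 anti-PD-1 71 in the H2-Ea class for Havcr2 (−0.180), Tnfrsf4 (−0.287) and Tnfrsf18 (−0.151) with Cd3e and for Ctla4 with Cd4 (−0.0435). It turned without the 2 farthest libraries for Tnfrsf18 with Cd3e (−0.109) and Ctla4 with Cd4 (−0.122) in the H2-Ea class and for Ctla4 with Cd4 (−0.146) and Havcr2 with Ncr1 (−0.0409) in the Cp-high class. Residuals from treatment means turned Tnfrsf9 with Cd3e in the Cp-low class (−0.00091). Over all 180 relations, 143 were positive as reported and 128 without the 2 farthest libraries, so signs of further relations turned. Tigit with Ncr1 in the H2-Ea class was 1 of them (−0.226, then 0.169).

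No paired analysis was possible because each mouse number in the labels belongs to 1 library. Depth limits Icos and Pdcd1 in the libraries poorest in T cells, Tnfrsf18 in the H2-Ea class and all receptors in PancO2 anti-PD-1 71.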
